A study of Mus musculus with 36 samples.

Results

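The 33 genes described here encode proteins that store, dock, prime and fuse transmitter vesicles at nerve terminals. They were chosen by symbol from a list of vesicle release proteins. All 33 were found among the 55487 genes of the deposited table, through their GENCODE M21 names, and all 33 passed the filter on low counts in each fit. They fall into 4 core fusion proteins, 2 proteins that take the fusion complex apart, 9 synaptotagmins, 5 vesicle membrane proteins, 3 synapsins, 2 complexins, 6 priming and active zone proteins, and Rab3a with its effector.

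A vesicle fuses when a SNARE protein of its own membrane zips together with SNARE proteins of the plasma membrane. Complexins hold the zipped complex ready, and synaptotagmins trigger fusion when calcium enters. Scaffold and priming proteins of the active zone place vesicles beside calcium channels, and synapsins keep a reserve of them. In the dorsal root ganglion (DRG) these transcripts lie in the cell bodies of sensory neurons, far from their terminals in skin and dorsal spinal cord, while in the cord they lie mostly in local neurons.

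Poly(A) RNA was sequenced from 2 tissues, DRG and the dorsal part of the spinal cord. The mice, female by the title of the series, were knockout or wild type, and had a spared nerve injury (SNI) or were naive. In that model some branches of the sciatic nerve are cut and another is left intact. In each tissue and genotype there were 5 naive libraries and 4 libraries after SNI, so 8 groups and 36 libraries. The sources used here did not give strain, age, side or time after injury, and the knockout was not described as limited to a cell type. Naive DRG libraries were A1, A3, B1, B3 and C1 (wild type) and A2, A4, B2, B4 and C2 (knockout). DRG libraries after SNI were E1, E3, F1 and F3 (wild type) and E2, E4, F2 and F4 (knockout). Values per library are printed in these orders, as CPM (counts scaled to depth, with TMM factors over all 36 libraries).

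Depth was 21.34 to 27.27 M estimated reads. Libraries A2 and A4 had wild type in their titles and knockout in their genotype field, and the genotype field was followed. Whether libraries came from separate animals was not labelled, so p-values measure the spread between these libraries. Naive libraries carry the letters A to C and injured ones E and F, and what the letters mark was not labelled. Injury and letter thus cannot be told apart. In bulk tissue, fewer neurons and less RNA per neuron cannot be told apart.

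DRG libraries differed in content within groups. In naive wild-type DRG, B1 and B3 lay above A1, A3 and C1 for 28 of the 33 genes, and C1 was lowest for 27. The summed CPM of 5 blood genes (hemoglobin genes and Alas2) was 721 in B1 and 877 in B3, against 1503 in A1, 1515 in A3 and 3439 in C1. In injured wild-type DRG, E3 and F3 both lay below E1 and F1 for 27 genes. There the summed CPM of 18 neuronal genes outside the synapse (such as Tubb3, Uchl1 and Gap43) was 14200 in E3 and 12670 in F3, against 17800 in E1 and 16160 in F1. The order of libraries was not counted over all genes, so it is not shown to be particular to the 33.

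Per kilobase of exon, the highest levels in naive wild-type DRG were those of Syt11 (median 173 CPM per kb), the complexin gene Cplx1 (150), the plasma membrane SNARE gene Snap25 (138) and Syt4 (104). Syn3 (0.385), Syt12 (1.37) and the scaffold gene Bsn (4.02) were lowest. In naive wild-type cord the order was led by Cplx1 (472 CPM per kb), Snap25 (403), Syt11 (200) and Rab3a (182), and Syn3 (1.45) was again lowest. Members of a pair stood in unlike proportions in the tissues. In DRG the vesicle glycoprotein gene Sv2b (35.6) was above Sv2a (6.94), whereas in cord Sv2a (113) was above Sv2b (16.1).

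After nerve injury, most release genes in DRG fell or did not pass the test, and Syt4 and Stx1a rose. In wild-type DRG 14 of the 33 fell and 2 rose. Their median log2 value was -0.32, beside -0.01 over all 19496 genes tested. Among all genes 12.3% were called lower and 12.6% higher. In knockout DRG 17 fell and 3 rose (median -0.37, all genes 0.01), where 13.3% of all genes were called lower and 15.1% higher. The 13 genes that fell in both genotypes were Snap25, Vamp1, Syt3, Syt7, Sv2b, Synpr, Cplx2, Unc13a, Rims1, Rims2, Pclo, Rab3a and Rph3a. Stx1a and Syt4 rose in both. These calls came from edgeR's quasi-likelihood test with Benjamini-Hochberg adjustment over all genes tested, as did the rest.

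**Figure D1:**
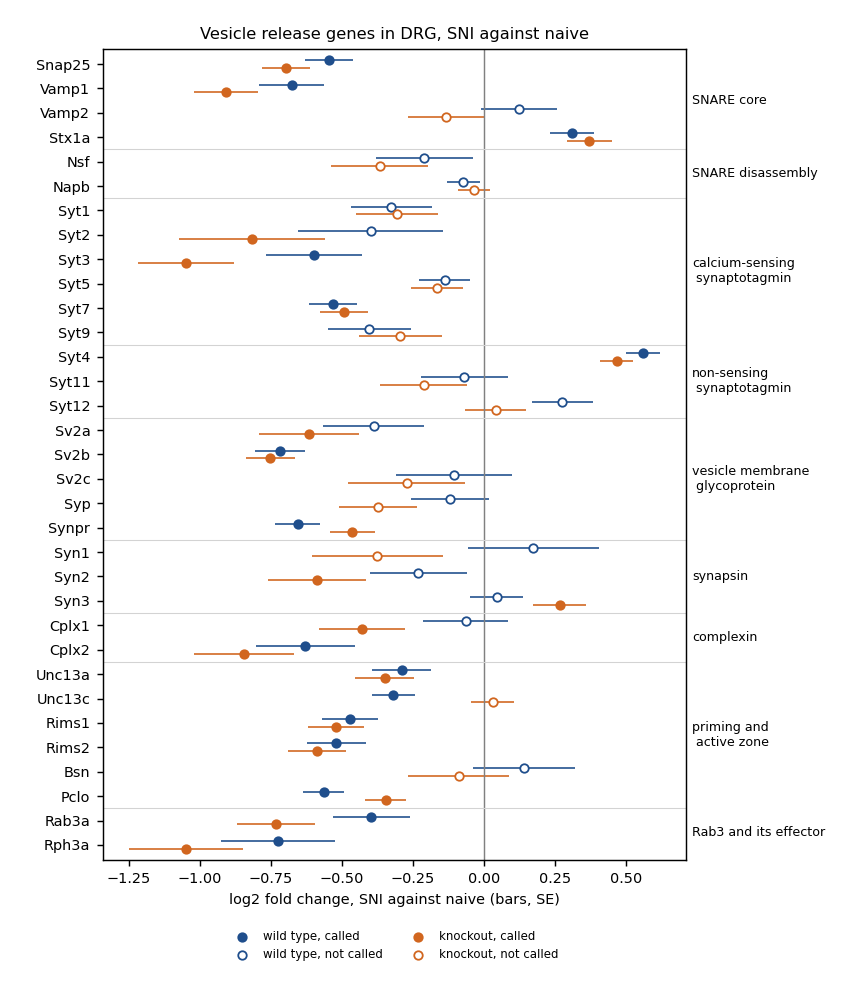
Log2 fold change of each of the 33 genes in DRG, SNI against naive (x axis, bars are standard errors), in wild type (blue) and knockout (orange), with genes grouped by role. Filled points passed the test: most lie left of 0, while Syt4 and Stx1a lie right of it in both genotypes.

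The decreases reached most roles but not every member of each. Of the 6 priming and active zone genes 5 fell in wild type and 4 in knockout. Both Rab3a and Rph3a fell in both genotypes. No synapsin passed the test in wild type, while in knockout Syn2 fell and Syn3 rose. Neither of the genes for SNARE disassembly, Nsf and Napb, passed in either genotype. Over all settings run, 19 per genotype, 9 release genes were lower in every setting in wild type and 14 in knockout. Syt4 was higher in every setting in both. The share of all genes called in every setting was not taken, so these counts have no background to compare with.

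Naive DRG libraries also differed between genotypes. Of the 33 genes, 18 were higher and 3 lower in knockout than in wild type, with a median log2 fold change of 0.38 (all genes -0.02), where 12.8% of all genes were called higher and 15.4% lower. The higher genes came from every role, and the 3 lower ones were Synpr, Pclo and Syt4. After injury 2 genes were higher in knockout (Syn3 and Sv2b) and 2 lower (Syt4 and Synpr), where 2.39% of all genes were called higher and 2.71% lower. Synpr and Syt4 were lower in knockout in both states, and Sv2b was higher in both.

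The calls of higher expression in naive knockout DRG depended on how the content of the libraries was treated. The blood sum ran from 721 to 3439 in naive wild type and from 189 to 600 in naive knockout, and all 5 blood genes were called lower. The neuronal sum ran from 11390 to 15590 and from 15800 to 19620, with 8 of 18 genes called higher and 0 lower. Neither sum overlapped between these groups, so genotype and library content cannot be told apart in the settings that follow. With a blood score as covariate, 0 of the 33 genes were called higher and 2 lower, Synpr and Syt4. Without A1, A3, C1 and F3, the 4 DRG libraries with the highest blood sums, it was again 0 higher and the same 2 lower. That fit kept only B1 and B3 as naive wild-type libraries. With a neuronal score as covariate 1 gene, Sv2b, was higher and 5 were lower. The median of the 33, 0.38 in the fit as planned, was 0.02 with the blood score, 0.05 with the neuronal score and 0.16 without the 4 libraries. The share of all genes called was not taken in these settings. With the blood score Vamp2 (-0.07) and Rab3a (-0.03), both called higher in the fit as planned, lay below 0.

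Calls were also lost when libraries were left out for other reasons. Leaving out A2, A3 or C1 each left 13 calls of 21. Leaving out both A2 and A4, the libraries with conflicting labels, also left 13, but the median was then 0.40.

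**Figure D2:**
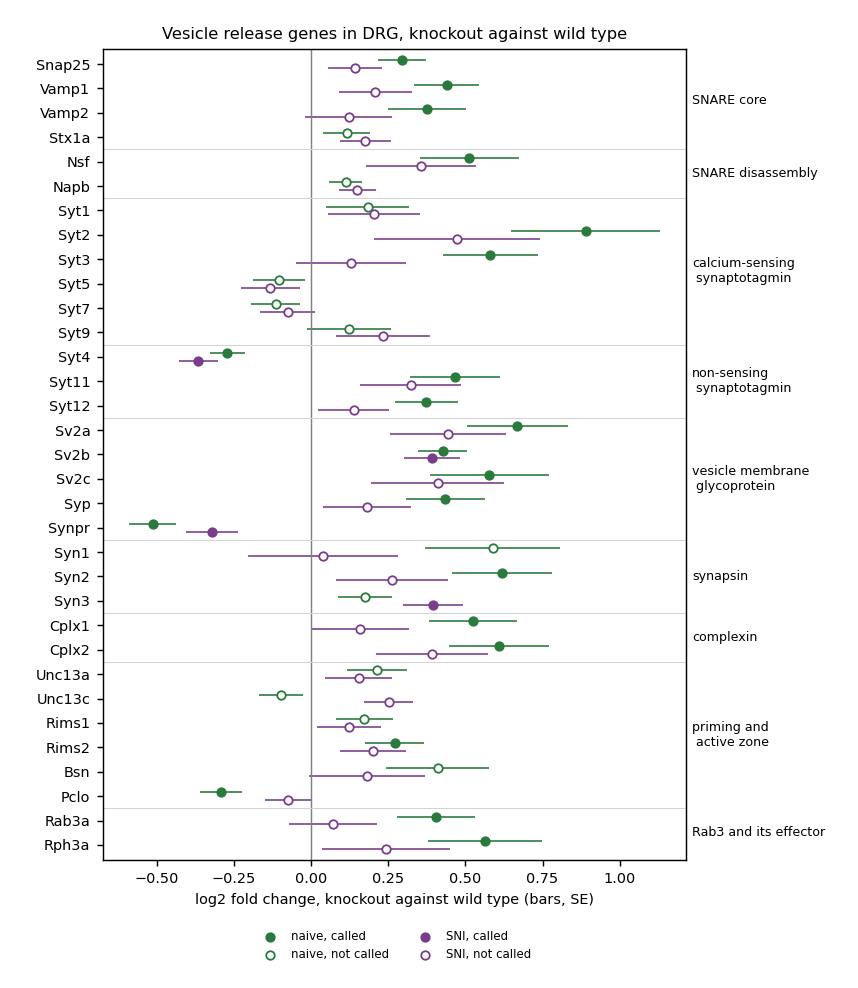
Log2 fold change of each gene in DRG, knockout against wild type (x axis, bars are standard errors), for naive (green) and injured (purple) libraries. In naive DRG most points lie right of 0 and those of Synpr, Pclo and Syt4 left of it; in injured DRG only 4 points are filled.

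Vamp1 and Snap25 were the core fusion genes that fell most. Vamp1 (chr6:125215551-125245964, GRCm38) encodes a SNARE of the vesicle membrane. In wild-type DRG it was at 341, 322, 407, 405 and 305 CPM in naive and 249, 189, 254 and 193 CPM in injured libraries. In knockout DRG it was at 570, 428, 470, 469 and 507 CPM in naive and 267, 246, 278 and 226 CPM in injured libraries. Every injured library lay below every naive one in both genotypes. The log2 fold change was -0.68 ± 0.11 (SE, adjusted p = 0.000174) in wild type and -0.91 ± 0.11 (6.8e-06) in knockout.

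Snap25 (chr2:136713453-136782428) fell by 0.54 on the log2 scale in wild type and by 0.70 in knockout (adjusted p = 7.42e-05 and 4.5e-06). Its means were 963 ± 68.1 CPM (SD, n = 5) and 656 ± 89 CPM (n = 4) in naive and injured wild type, and 1196 ± 74.5 and 721 ± 41.9 CPM in knockout. Stx1a encodes the syntaxin of the plasma membrane that pairs with Snap25. It went the other way, from 28.6, 26.4, 30.2, 32.8 and 24.1 CPM to 36.8, 34.6, 36.6 and 32.0 CPM in wild type. The injured library F3 lay below the naive library B3, so these groups overlapped. In knockout DRG Stx1a went from 33.3, 29.3, 30.0, 33.2 and 30.1 CPM to 42.8, 40.4, 37.2 and 37.1 CPM, without overlap. Its log2 fold change was 0.31 ± 0.08 (adjusted p = 0.00647) in wild type and 0.37 ± 0.08 (0.00142) in knockout, and the wild-type call was lost without the 4 libraries highest in blood genes (0.22). Vamp2, the paralog of Vamp1, had values of 0.12 ± 0.13 and -0.13 ± 0.13 and did not pass the test after injury.

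Among calcium-sensing synaptotagmins, Syt3 and Syt7 fell in both genotypes and Syt2 in knockout. Syt2, with Syt1, is a sensor of fast release. In naive wild-type DRG it was at 133, 99.3, 174, 171 and 88.0 CPM, and in naive knockout DRG at 286, 208, 250, 247 and 258 CPM. All naive knockout libraries were above all naive wild-type ones. The difference was 0.89 ± 0.24 (adjusted p = 0.0143), the largest of the 33, and was 0.28 (adjusted p = 0.784) with the blood score and 0.23 (0.36) with the neuronal score.

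After injury Syt2 was at 137, 57.2, 143 and 63.5 CPM in wild type, where E3 and F3 stood apart from E1 and F1, and at 160, 140, 140 and 115 CPM in knockout. Its fall in knockout was -0.82 ± 0.26 (adjusted p = 0.0239), and the call was lost without A2, without F4, with the blood score and with no filter on low counts. In wild type the value was -0.40 ± 0.26 (0.297). Syt1, Syt5 and Syt9 passed the test in no DRG comparison.

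Syt3 encodes a synaptotagmin with high affinity for calcium. It was at 15.3, 14.5, 17.5, 18.6 and 13.01 CPM in naive and 13.3, 9.33, 11.4 and 7.31 CPM in injured wild-type DRG. In knockout DRG it was at 29.0, 17.5, 23.3, 24.5 and 25.1 CPM in naive and 13.7, 10.8, 11.6 and 8.94 CPM in injured libraries. Groups overlapped in wild type (E1 lay above C1) and did not in knockout. The log2 fold change was -0.60 ± 0.17 (adjusted p = 0.0137) in wild type and -1.05 ± 0.17 (0.000119) in knockout. Naive knockout was above naive wild type by 0.58 ± 0.15 (0.0125), with A4 inside the wild-type range. That difference was 0.11 (0.872) with the blood score.

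Syt4 is a synaptotagmin that does not act as a calcium sensor for fusion and is found on dense-core vesicles. It went against most of the 33 genes, higher after injury and lower in naive knockout. In wild-type DRG it was at 403, 363, 424, 433 and 368 CPM in naive and 595, 622, 553 and 566 CPM in injured libraries. In knockout DRG it was at 315, 346, 325, 341 and 344 CPM in naive and 455, 454, 445 and 450 CPM in injured libraries. None of these 4 groups overlapped with its counterpart in the other state or genotype.

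The rise of Syt4 with injury was 0.56 ± 0.06 (adjusted p = 1.02e-06) in wild type and 0.47 ± 0.06 (8.36e-06) in knockout. Knockout was lower than wild type by -0.27 ± 0.06 (0.00309) in naive and -0.37 ± 0.06 (0.00133) in injured DRG, and both calls held in all 21 and 19 settings run. Syt4 shares 566 exonic bases with an antisense gene, Gm26658, with a mean of 16.1 estimated reads per library. Syt11 and Syt12, the other members of its class, were higher in naive knockout DRG by 0.47 ± 0.15 (0.0261) and 0.37 ± 0.10 (0.015). With the blood score these were 0.10 (0.889) and 0.12 (0.787). Neither Syt11 nor Syt12 passed the test after injury.

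Synpr, which encodes the vesicle membrane protein synaptoporin (chr14:13284780-13616340), fell after injury and was lower in knockout. Its values in wild-type DRG were 413, 457, 443, 442 and 429 CPM in naive and 262, 305, 255 and 281 CPM in injured libraries. In knockout DRG they were 284, 347, 290, 309 and 320 CPM in naive and 184, 237, 237 and 222 CPM in injured libraries. As for Syt4, neither state nor genotype groups overlapped. After injury Synpr differed by -0.66 ± 0.08 (adjusted p = 5.66e-06) in wild type and -0.46 ± 0.08 (0.000231) in knockout.

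Between genotypes Synpr differed by -0.51 ± 0.07 (adjusted p = 0.000156) in naive DRG, called in all 21 settings. In injured DRG the difference was -0.32 ± 0.08 (0.031), and this call was lost without E2, E3, F3 or F4 in turn (-0.25 to -0.34). Its relative synaptophysin, Syp, was instead higher in naive knockout DRG, 349 ± 26.4 CPM against 255 ± 44.1 CPM (0.43 ± 0.13, 0.021). That difference was 0.015 (0.986) with the blood score and 0.046 (0.646) with the neuronal score. Syp did not pass the test after injury in either genotype.

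Sv2a, Sv2b and Sv2c encode glycoproteins of the vesicle membrane, and Sv2a binds the antiepileptic drug levetiracetam. Sv2b was at 299, 267, 319, 322 and 266 CPM in naive and 185, 142, 208 and 177 CPM in injured wild-type DRG, with no overlap. It was at 426, 372, 401, 405 and 399 CPM in naive and 237, 226, 235 and 231 CPM in injured knockout DRG, also with no overlap. Its injury changes were close, -0.72 ± 0.09 (adjusted p = 5.07e-06) and -0.75 ± 0.09 (2.71e-06). Knockout was above wild type by 0.43 ± 0.08 (0.00165) in naive and 0.39 ± 0.09 (0.0149) in injured DRG, a call lost with only those 2 groups in the fit. The naive difference was 0.32 (0.178) with the blood score and 0.27 (0.0327) with the neuronal score.

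Sv2a was less abundant in DRG, at 32.2, 25.95, 37.8, 33.1 and 24.0 CPM in naive wild type and 57.2, 41.7, 46.3, 48.5 and 52.8 CPM in naive knockout. These groups did not overlap (0.67 ± 0.16, adjusted p = 0.00887), and the value was 0.22 (0.733) with the blood score. After injury Sv2a fell in knockout by 0.61 on the log2 scale (0.0136), while its wild-type value was -0.39 ± 0.18 (0.129). Sv2c, whose mean in naive knockout was 789 ± 45.2 CPM against 522 ± 129 CPM in wild type (0.58 ± 0.19, 0.0349), did not pass the test after injury. Its difference between naive genotypes was 0.16 (0.872) with the blood score.

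**Figure D3:**
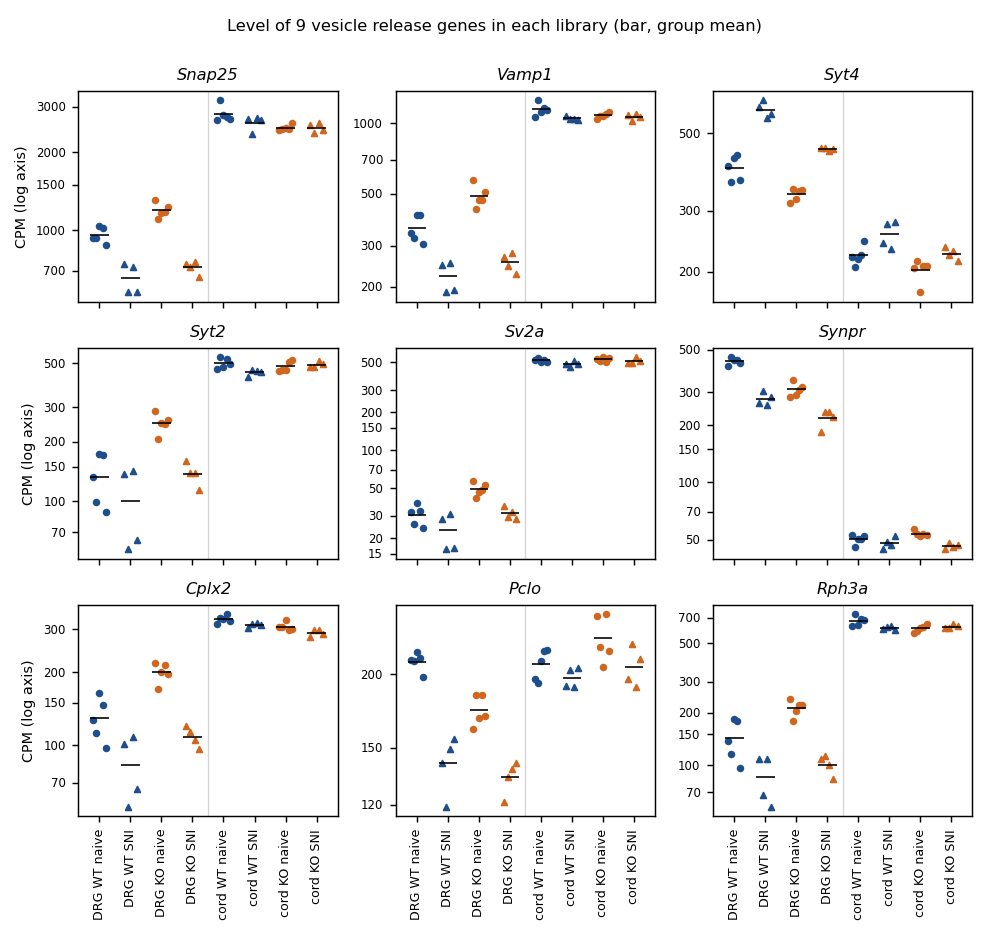
CPM on a log axis (y) of 9 genes in each library of the 8 groups (x; WT wild type in blue, KO knockout in orange, circles naive, triangles SNI), with bars at group means. Within DRG, Syt4 is higher and the other 8 lower on average after SNI in each genotype, and injured wild-type libraries fall into a higher and a lower pair for Syt2, Sv2a and Rph3a.

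Synapsins tether vesicles to one another and to the cytoskeleton. Syn2 was at 70.8, 61.3, 86.0, 87.3 and 50.7 CPM in naive wild type and 121, 98.6, 106, 109 and 119 CPM in naive knockout DRG, without overlap (0.62 ± 0.16, adjusted p = 0.0115). That value was 0.06 (0.936) with the blood score. In knockout Syn2 fell after injury to 86.4, 74.8, 65.2 and 61.5 CPM (-0.59 ± 0.17, 0.0152). Syn1 had values of 0.17 ± 0.23 (0.646) in wild type and -0.37 ± 0.23 (0.255) in knockout after injury, and 0.59 ± 0.22 (0.0521) between naive genotypes, which turned to -0.18 with the blood score and -0.04 with the neuronal score.

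Syn3 was the least abundant of the 33 genes, at 4.79, 4.46, 5.10 and 5.32 CPM in injured wild-type and 6.78, 6.64, 6.58 and 5.74 CPM in injured knockout DRG. The groups did not overlap, and the difference was 0.40 ± 0.10 (adjusted p = 0.0224). Its rise with injury in knockout, from 5.29, 5.86, 4.99, 5.83 and 5.43 CPM, was 0.27 ± 0.09 (0.0367), with overlap between groups at F4. Syn3 shares 1733 exonic bases with the antisense gene Timp3, which had a mean of 5342 estimated reads per library. Timp3 values in the same comparisons were 0.13 ± 0.07 (0.263) and 0.06 ± 0.06 (0.502). Whether reads were assigned by strand was not given in the sources used here, so Syn3 is uncertain. Some doubt of this kind holds for Syt12, Syp, Syn1, Syn2, Sv2b, Pclo and Rab3a, which share fewer exonic bases with genes on the other strand. Syn2 shares 90 with Timp4 (mean of 726 estimated reads), Rab3a 29 with Mpv17l2 (218.5) and Syn1 9 with Araf (3636). The partners of Pclo, Syt12, Sv2b and Syp had lower means, from 0.06 to 45.9. Each call of Syn3 was lost in several settings, among them those without E2, E4 or F2.

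Complexin genes fell in knockout, and Cplx2 in wild type as well. Cplx2 was at 127, 112, 164, 146 and 97.3 CPM in naive and 102, 56.0, 109 and 66.2 CPM in injured wild-type DRG. In knockout DRG it was at 218, 170, 200, 214 and 197 CPM in naive and 120, 114, 105 and 96.5 CPM in injured libraries. E1 and F1 overlapped with the naive range in wild type, and there was no overlap in knockout. The changes were -0.63 ± 0.17 (adjusted p = 0.0124) in wild type, a call lost without F3 (-0.52) or with only the 2 groups compared, and -0.84 ± 0.17 (0.00126) in knockout. Naive genotypes differed by 0.61 ± 0.16 (0.013), and by 0.23 (0.723) with the blood score. Cplx1 fell in knockout alone as a call (-0.43 ± 0.15, 0.0426), its wild-type value was -0.06 ± 0.15 (0.81), and its difference between the genotypes did not pass the test (-0.36 ± 0.21, 0.847).

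Of the priming and active zone genes, Pclo had the lowest adjusted p after injury in wild type. Pclo, which encodes the scaffold piccolo (chr5:14514918-14863459), was at 211, 211, 218, 213 and 198 CPM in naive and 141, 119, 149 and 155 CPM in injured wild-type DRG. In knockout DRG it was at 161, 185, 169, 184 and 170 CPM in naive and 121, 134, 138 and 141 CPM in injured libraries. State groups did not overlap in either genotype, and in naive DRG every knockout library lay below every wild-type one. After injury Pclo differed by -0.56 ± 0.07 (adjusted p = 9.57e-06) in wild type and -0.35 ± 0.07 (0.00125) in knockout. Naive knockout was lower by -0.29 ± 0.07 (0.00604), and by -0.21 (0.337) with the blood score.

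Rims1 and Rims2, which encode scaffolds that bind Rab3 and calcium channels, fell by 0.47 and 0.52 on the log2 scale in wild type and by 0.52 and 0.59 in knockout, and each of these calls held in all 19 settings. Unc13a, which encodes the priming protein Munc13-1, changed by -0.29 ± 0.10 (adjusted p = 0.0482) and -0.35 ± 0.10 (0.0159). Unc13a shares 495 exonic bases with the antisense gene Colgalt1, which had a mean of 1191 estimated reads per library and values of 0.04 ± 0.06 (0.651) and 0.09 ± 0.06 (0.313), so Unc13a is uncertain too. Unc13c fell in wild type (-0.32 ± 0.08, 0.0041) and had a value of 0.03 ± 0.08 (0.804) in knockout. The scaffold gene Bsn, which encodes bassoon, passed the test in no DRG comparison, with injury values of 0.14 ± 0.18 and -0.09 ± 0.18.

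Rab3a encodes the small GTPase of synaptic vesicles, and Rph3a encodes rabphilin, which binds it. Rph3a (chr5:120940499-121010092) was at 137, 116, 184, 179 and 96.0 CPM in naive and 108, 67.5, 108 and 57.9 CPM in injured wild-type DRG. In knockout DRG it was at 239, 180, 205, 220 and 222 CPM in naive and 108, 112, 100 and 82.8 CPM in injured libraries. Only the wild-type groups overlapped, at C1 with E1 and F1. The changes were -0.72 ± 0.20 (adjusted p = 0.0116) in wild type and -1.05 ± 0.20 (0.000648) in knockout. Rab3a changed by -0.40 ± 0.14 (0.0397) and -0.73 ± 0.14 (0.000506), and both were higher in naive knockout, by 0.56 ± 0.18 (0.032) for Rph3a and 0.41 ± 0.13 (0.0263) for Rab3a. With the blood score these were 0.02 (0.986) and -0.03 (0.968).

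The difference in injury response between genotypes was tested itself. No gene of the 33 was called in DRG, where 0.0256% of all genes were (4 higher and 1 lower, the latter 0.00513%). Of the 33, 2 had an unadjusted p under 0.05, Unc13c (0.35 ± 0.11, adjusted p = 0.669) and Pclo (0.22 ± 0.10, 0.835). Over all 19496 genes tested, 1160 had an unadjusted p under 0.05. DESeq2 and limma also called 0. So a gene called in 1 genotype alone, such as Cplx1 or Unc13c, was not shown to respond differently.

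Stretches upstream of a start site are shown for 4 genes that changed in DRG or whose family did, as text for the motifs searched. They were read from RefSeq promoter windows (GRCm38.p6), present for 25 of the 33 genes, and overlap no GENCODE M21 exon. Capitals mark the matches of the motifs named here for each gene. Syn1 is at chrX:20921049-20921168 on the minus strand, 250 to 131 bases before the start, with TTCAGCACC (left arm of the element bound by the repressor REST) and TGACGTCA (the cyclic AMP response element). Rph3a is at chr5:121010143-121010242, minus strand, and Syt2 at chr1:134709067-134709166, plus strand, each with TGANTCA (the AP-1 element). Vamp1 is at chr6:125215431-125215550, plus strand, with GGGCGG (the Sp1 element). The Syt2 stretch also holds a GGGCGG, which is left in lower case.
Syn1: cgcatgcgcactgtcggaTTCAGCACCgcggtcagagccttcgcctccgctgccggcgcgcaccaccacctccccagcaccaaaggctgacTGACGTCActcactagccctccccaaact
Rph3a: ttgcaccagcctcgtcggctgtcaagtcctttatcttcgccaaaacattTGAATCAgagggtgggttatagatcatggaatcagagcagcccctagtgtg
Syt2: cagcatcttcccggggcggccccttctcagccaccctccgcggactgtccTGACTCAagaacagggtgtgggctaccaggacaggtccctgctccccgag
Vamp1: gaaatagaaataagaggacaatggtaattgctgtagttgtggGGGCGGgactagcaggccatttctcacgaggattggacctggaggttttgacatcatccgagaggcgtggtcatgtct

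Both strands of windows of 300 bases were searched, and GGGCGG was found in 19 of the 25 genes (76%), against 38.2% of all 27025 genes with a window. TGANTCA was in 2 of 25 (8%, all genes 8.97%), and TGACGTCA in Syn1 alone (4%, all genes 2.03%). TTCAGCACC was in Syn1 and Unc13a (8%, all genes 0.43%). The match of Unc13a lies after its start. Of the genes printed, Rph3a and Vamp1 fell after injury in both genotypes, Syt2 in knockout, and Syn1 in neither.

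Most release genes were higher in cord than in DRG, and a few were far lower. In naive wild type 22 of the 33 genes were higher and 6 lower in cord (median log2 fold change 0.98, all genes -0.06), where 76.7% of all genes were called, 36.6% higher and 40.1% lower. In naive knockout 22 were higher and 7 lower (median 0.71, all genes 0.00), where 37.8% were called higher and 37% lower. Genes higher in cord in both genotypes numbered 21 and those lower in both 5, namely Stx1a, Syt9, Syt4, Sv2b and Synpr. With upper quartile scaling the wild-type median was 0.86, with 22 higher and 6 lower. DRG and cord were scaled together here, and the non-synaptic neuronal list had 11 of 18 genes lower in cord in wild type.

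**Figure D4:**
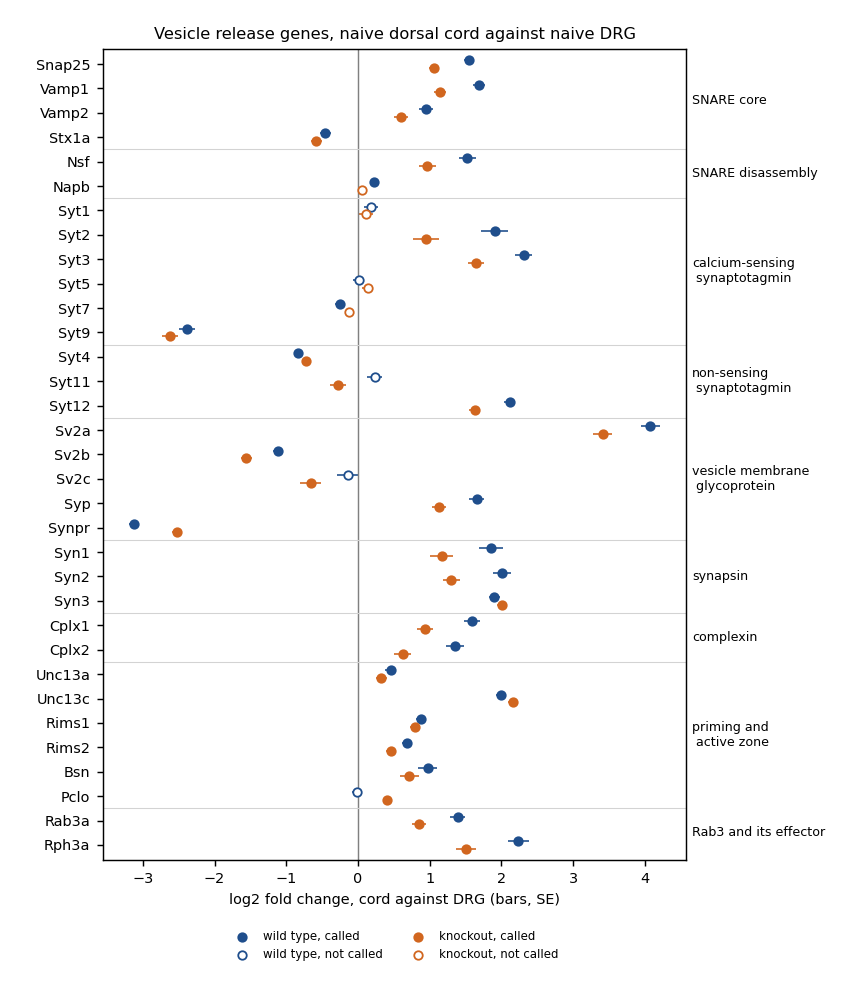
Log2 fold change of each gene, naive cord against naive DRG (x axis, bars are standard errors), in wild type (blue) and knockout (orange). Sv2a lies farthest right and Synpr and Syt9 farthest left in both genotypes.

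The widest gap was that of Sv2a. It was at 524, 534, 498, 523 and 503 CPM in naive wild-type cord (libraries A5, A7, B5, B7 and C5), against 24.0 to 37.8 CPM in DRG, a log2 difference of 4.08 ± 0.13 (adjusted p = 7.3e-24). Syt3 was at 78.7, 85.7, 72.9, 77.8 and 75.3 CPM in cord (2.31 ± 0.12, 1.15e-18), and Rph3a at 628, 731, 633, 690 and 676 CPM (2.24 ± 0.15, 2.52e-15). Each of these cord groups lay wholly above its DRG group. Syt12, at 33.4, 35.9, 37.3, 35.5 and 35.7 CPM, was higher by 2.12 ± 0.08 (3.08e-23), and Syn2, at 292, 305, 272, 293 and 272 CPM, by 2.01 ± 0.12 (3.96e-16). In knockout the largest differences in favour of cord after Sv2a (3.41 ± 0.13, 4.74e-22) were those of Unc13c (2.16 ± 0.07, 5.05e-25) and Syn3 (2.01 ± 0.07, 2.24e-23). Unc13c was at 235, 235, 217, 245 and 217 CPM in naive knockout cord (A6, A8, B6, B8 and C6), against 46.6 to 56.4 CPM in DRG.

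Synpr in wild type and Syt9 in knockout were lowest relative to DRG. Synpr was at 52.9, 45.9, 50.2, 50.1 and 52.1 CPM in naive wild-type cord, against 413 to 457 CPM in DRG (-3.12 ± 0.07, adjusted p = 3.27e-30). Syt9, a fast calcium sensor, was at 17.98, 18.96, 17.1, 17.9 and 17.1 CPM in cord and 94.2, 82.4, 112, 105 and 72.7 CPM in DRG (-2.39 ± 0.11, 2.69e-19). For both genes the groups were apart. In knockout the values were -2.53 ± 0.06 (8.9e-28) for Synpr and -2.62 ± 0.12 (2.65e-20) for Syt9. Sv2b was at 127, 141, 133, 135 and 144 CPM in cord (-1.12 ± 0.07, 2.89e-16), Syt4 at 221, 207, 219, 224 and 246 CPM (-0.84 ± 0.06, 5.91e-15) and Stx1a at 22.9, 21.1, 20.8, 20.97 and 17.6 CPM (-0.46 ± 0.08, 1.86e-06). Sv2c was lower in cord in knockout (-0.66 ± 0.15, 0.000181) and did not pass in wild type (-0.14 ± 0.15, 0.385). The knockout value turned to 0.65 with the neuronal score as covariate.

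Related genes thus stood in unlike ratios, which are given as a description of pairs chosen after their values were seen. The Sv2a to Sv2b ratio of CPM had a median of 0.103 in naive wild-type DRG (range 0.09 to 0.119) and 3.78 in cord (3.5 to 4.14). The Syt2 to Syt1 ratio in naive DRG was 0.574 (0.489 to 0.719) for wild type and 0.99 (0.811 to 1.15) for knockout. It was 2.002 (1.795 to 2.128) in naive wild-type cord. After injury in knockout DRG it was 0.669 (0.602 to 0.807), below every naive knockout library.

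The Vamp1 to Vamp2 ratio changed with injury within DRG. It was 2.3 (2.18 to 2.44) in naive and 1.29 (1.2 to 1.57) in injured wild type, and 2.41 (2.22 to 2.55) and 1.38 (1.27 to 1.6) in knockout, so genotypes overlapped and states did not. In cord the ratio was 3.97 (3.53 to 4.09) in naive and 3.47 (3.39 to 3.61) in injured wild type. The Cplx2 to Cplx1 ratio went from 0.368 (0.332 to 0.39) to 0.257 (0.2 to 0.275) in wild-type and from 0.396 (0.356 to 0.428) to 0.293 (0.28 to 0.307) in knockout DRG, also without overlap of states.

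**Figure D5:**
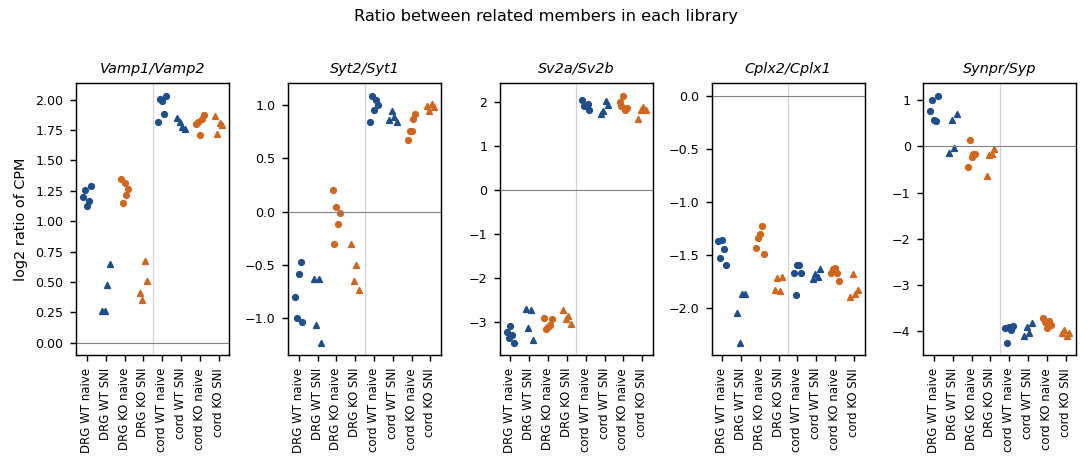
Log2 of the CPM ratio (y) of 5 pairs of related genes in each library of the 8 groups (x; WT wild type in blue, KO knockout in orange, circles naive, triangles SNI). Vamp1/Vamp2 is lower after SNI in DRG of both genotypes, Syt2/Syt1 is higher in naive knockout than in naive wild-type DRG, and Sv2a/Sv2b and Synpr/Syp separate the tissues.

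In dorsal cord the release genes changed little with injury. In wild-type cord none of the 33 was called, where 2.88% of all genes were called, 2.61% higher and 0.271% lower. Their values ran from -0.15 (Syt2) to 0.20 (Syt4), 30 of 33 were below 0, and the median was -0.07 (all genes -0.01). At an unadjusted p under 0.05 there were 13 of the 33, beside 2098 of all 18843 genes. DESeq2 called 4 lower and limma 1, and the edgeR count was 4 without the naive library A5. For these alternatives the share of all genes called was not taken. In the fit as planned, 7 of 8 microglia genes were called higher.

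In knockout cord 2 genes fell, where 4.42% of all genes were called, 0.626% lower and 3.79% higher, and 8 of 8 microglia genes were called higher. Synpr went from 56.8, 53.7, 52.0, 53.5 and 52.8 CPM to 44.7, 47.9, 45.6 and 46.6 CPM (-0.22 ± 0.05, adjusted p = 0.00391). Syt1 went from 286, 273, 273, 277 and 275 CPM to 241, 249, 255 and 249 CPM (-0.16 ± 0.03, 0.00177). Neither pair of groups overlapped, and neither gene was called with the neuronal score as covariate (-0.13 and -0.12). The test of a genotype difference in injury response in cord called 0 of the 33 (0% of all genes). DESeq2 and limma also called 0 of them. At an unadjusted p under 0.05 there were 7 of the 33, beside 1150 of all 18843 genes.

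Between genotypes in naive cord 4 genes were higher in knockout and 3 lower, where 19.7% of all genes were called, 9.79% higher and 9.94% lower. Syn3 was at 17.5, 15.4, 18.9, 17.8 and 20.1 CPM in wild type and 23.4, 21.4, 21.4, 22.9 and 21.1 CPM in knockout (0.30 ± 0.06, adjusted p = 0.0015), while Timp3 was at -0.08 ± 0.08 (0.518). Syt1 was at 260, 252, 246, 253 and 248 CPM in wild type and 286, 273, 273, 277 and 275 CPM in knockout (0.14 ± 0.03, 0.00218). Both genes were higher in every knockout library. Bsn was at 115, 124, 123, 129 and 131 CPM and 144, 137, 131, 146 and 142 CPM (0.17 ± 0.05, 0.0187), and Rims1 at 97.5, 97.1, 109, 105 and 98.6 CPM and 110, 108, 109, 112 and 111 CPM (0.11 ± 0.04, 0.0292), both with overlap.

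The lower ones were Snap25, Rph3a and Cplx2, each of which was called higher in naive knockout DRG in the fit as planned. With the blood score those DRG differences were 0.10 (adjusted p = 0.762), 0.02 (0.986) and 0.23 (0.723). Snap25 was at 2661, 3179, 2794, 2735 and 2695 CPM in wild-type and 2439, 2452, 2483, 2465 and 2604 CPM in knockout cord, without overlap (-0.18 ± 0.05, adjusted p = 0.00781). Rph3a was at 574, 591, 610, 616 and 646 CPM in knockout cord (-0.15 ± 0.04, 0.0106) and Cplx2 went from 317, 336, 332, 346 and 325 CPM in wild type to 307, 307, 328, 300 and 300 CPM (-0.10 ± 0.03, 0.029), both with overlap. The blood sum was 175 to 496 CPM in naive wild-type and 141 to 178 CPM in naive knockout cord, and with a blood score as covariate 0 of the 33 were called. With limma on the authors' normalised values 2 were higher and 9 lower. Leave-one-out counts ran from 4 (without B8) to 11 (without B6).

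In injured cord 1 gene, Sv2c, was higher in knockout and 0 were lower, where 6.26% of all genes were called, 2.95% higher and 3.31% lower. Sv2c was at 418, 441, 431 and 434 CPM in wild type (E5, E7, F5 and F7) and 512, 492.5, 482 and 503 CPM in knockout (E6, E8, F6 and F8). Every knockout library was above every wild-type one (0.20 ± 0.04, adjusted p = 0.00392), a call held in all 17 settings.

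The change with injury was also compared between the tissues, as cord minus DRG. In wild type 9 genes had a higher value in cord and 2 a lower one, where 6.92% of all genes were called higher and 5.59% lower. In knockout 16 were higher and 3 lower, where 10.5% of all genes were called higher and 6.69% lower. Sv2b (0.69) and Synpr (0.60) had the largest differences in wild type, and Rph3a (1.12) and Syt3 (1.00) in knockout. Stx1a and Syt4 were lower in this sense in both genotypes. These comparisons use the same DRG libraries as those above.

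Other genes of vesicle release and transport were mixed in injured DRG. Of 49 further release machinery genes tested (of 55 listed), 8 rose and 12 fell in wild type, with a median of -0.07. The 3 with the lowest adjusted p were Rab27b (-0.85), Doc2b, a calcium sensor (2.38), and Cadps2, a priming factor of dense-core vesicles (-0.72). In knockout 9 rose and 12 fell, led by Cadps2 (-0.77), the liprin gene Ppfia2 (0.55) and Doc2b (1.91). Of 22 vesicle recycling genes 6 rose and 4 fell in wild type, among them Cltb, a clathrin light chain (0.51), Sh3gl1 (0.25) and Ap2m1 (0.29), and 4 rose and 6 fell in knockout. Among 6 vesicular transporter genes tested, Slc17a8 (-1.04) and Slc18a2 (-0.24) fell in wild type. In knockout 1 of them rose, Slc17a6 (0.21), and 3 fell, led by Slc17a7 (-0.59) and Slc17a8 (-0.47).

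Neuronal genes outside the synapse were divided, with 5 of 18 higher and 4 lower in injured wild-type DRG (median 0.00), and 3 higher and 7 lower in knockout (-0.07). Gap43, a growth cone protein gene, rose in both (1.96 and 1.86), as did Stmn2 (0.96 and 0.92), while the transcription factor gene Isl1 fell (-0.56 and -0.46).

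Genes that mark classes of sensory neurons also fell more often than they rose, so the decrease was not shown to be particular to the release genes. Of 9 large fibre genes 1 rose and 4 fell in wild type (median -0.47) and 0 rose and 8 fell in knockout (-0.66), among them Cntnap2 (-0.62 and -0.63) and Calb1 (-0.58 and -0.76). Of 8 non-peptidergic genes 0 rose, while 5 fell in wild type (-0.65) and 6 in knockout (-0.64). Of 6 peptidergic genes 1 rose in each genotype, Adcyap1 (1.38 and 1.56), while 3 fell in wild type and 4 in knockout, among them Tac1, the gene of substance P (-0.77 and -0.69). Of 11 neuroendocrine secretory genes 1 rose in each, Vgf (1.91 and 1.61), while 5 fell in wild type and 7 in knockout, among them the granin gene Scg2 (-0.43 and -0.62).

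All 12 macrophage genes rose in both genotypes, and in wild-type DRG their summed CPM spanned 153 to 284 when naive and 411 to 738 when injured. With the neuronal score as covariate 26 of the 33 release genes were called lower and 2 higher in wild type. With the blood score 21 were lower and 2 higher. The neuronal score holds genes that changed with injury themselves, such as Gap43 and Stmn2, so its counts depend on those changes too. For neither score was the share of all genes called taken.

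In naive knockout DRG several of these lists had more genes higher than lower, and others did not. Release machinery had 11 genes higher and 5 lower, led by Rab3d (0.80), Syt17 (0.83) and Rims4 (0.59). Vesicle recycling had 8 higher and 0 lower, led by Sh3gl2 (0.62), Synj1 (0.51) and Snap91 (0.57), which act in endocytosis of vesicle membrane. Neuroendocrine secretory genes had 6 of 11 higher and 0 lower, led by Scg2 (0.38), Pcsk1 (0.24) and Chgb (0.64). Large fibre neuron genes had 6 of 9 higher and 2 lower, and non-peptidergic neuron genes 0 of 8 higher and 2 lower. Peptidergic genes had 1 higher and 1 lower, as did the vesicular transporters, namely Slc17a7 (0.83) and Slc17a8 (-0.71). Macrophage genes had 0 of 12 higher and 7 lower (median -0.61), and microglia genes 0 of 8 higher and 3 lower.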

How the data were processed

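RNA of DRG and dorsal spinal cord was sequenced in 36 libraries (18 for each tissue). These were, per the labels' protocols, stranded poly(A) libraries made with a TruSeq kit. The submitters' processing notes name GRCm38 as the build, and list RSEM, HISAT2 and FastQC 0.11.5. The sources used here gave neither roles nor other versions, nor the annotation or strand setting of the counting.

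For 55487 genes, the authors deposited expected counts, that is estimated reads per gene that need not be whole. In this table the column of library E1 was of another kind: 9150 cells had decimal commas, read here as points, and 1 cell held a letter and was restored to 1780.86. The authors' normalised table held signal values scaled by TMM (trimmed mean of M values) factors and was used for the limma alternative and that repair. Names, positions and exon lengths came from GENCODE M21.

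Expected counts were rounded and tested with edgeR 4.0.16 in R 4.3.3 (TMM factors, filterByExpr, robust quasi-likelihood F tests), with 18 libraries and 14 residual degrees of freedom per tissue, or all 36 libraries and 28 for comparisons between tissues. Called genes had an adjusted p (Benjamini-Hochberg, over every gene in the fit) under 0.05, with 19496 tested in DRG, 18843 in cord and 20626 over both. Standard errors were the log2 fold change over the square root of F. The fitting code was tested on simulated data. Alternatives used DESeq2 1.42.0, limma 3.58.1 on log2(value + 1), another scaling, no filter, covariates, blocks and left-out libraries. Values per library were given for the called genes with the largest change, up to 5 in each direction per comparison, and up to 3 genes were named from each other list. Other genes of each role, and the neuronal genes after injury, were named after their values were seen.

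The level of the targeted gene is not reported here. The 33 genes, the other lists and the motifs were chosen with earlier results of these data known.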

Additional observations from a re-analysis of the deposited data

Results flagged for a closer look

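In 14 of 264 sets of 4 or 5 libraries, 1 library lay far from the others of its group by Dixon's test, which flags about 1 in 20 groups by chance. All but 1 of these were in cord. In naive wild-type cord, library A7 stood out as high for Snap25 (3179 CPM), Cplx1 (1233 CPM) and Syn1 (353 CPM), and A5 as low for Sv2c (430 CPM). In injured wild-type cord, E7 was low for Snap25 (2362 CPM), and E5 was high for Vamp1 (1079 CPM) and low for Unc13a (128 CPM) and Bsn (107 CPM). In naive knockout cord, B6 was high for Vamp2 (330 CPM) and Cplx2 (328 CPM) and low for Syt4 (175 CPM), and C6 was high for Snap25 (2604 CPM). In injured knockout cord, F6 was high for Nsf (1024 CPM). In DRG, A4 was low for Syt12 (9.19 CPM) among naive knockout libraries.

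The injury response differed between tissues for several genes, by a test of the difference itself (cord minus DRG, over all 36 libraries). In wild type 11 of 33 genes were called, where 12.5% of all genes were. Positive differences, a stronger fall in DRG, were those of Sv2b (0.69), Synpr (0.60), Vamp1 (0.56), Cplx2 (0.55), Pclo (0.50), Syt7 (0.49), Rims2 (0.45), Snap25 (0.45) and Rims1 (0.41). Stx1a (-0.34) and Syt4 (-0.35) differed the other way.

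In knockout 19 genes were called, where 17.2% of all genes were. The positive differences were those of Rph3a (1.12), Syt3 (1.00), Vamp1 (0.92), Sv2b (0.91), Syt2 (0.88), Cplx2 (0.79), Rab3a (0.75), Snap25 (0.73), Sv2a (0.61), Rims2 (0.59), Syn2 (0.56), Cplx1 (0.53), Syt7 (0.50), Rims1 (0.46), Syp (0.41) and Synpr (0.28). The negative ones were those of Stx1a (-0.42), Syn3 (-0.34) and Syt4 (-0.28).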

How the results depend on the processing

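Alternatives planned from the labels were another filter, scaling, test, blood score, block and left-out libraries. The letter of the title was not used as a block for SNI against naive, since no letter holds both states. The neuronal score and the fit without the 4 DRG libraries highest in blood genes were chosen after seeing the data. Counts below are of the 33 genes called, and the share of all genes called was not taken in the alternatives. For injury in DRG, the wild-type count of 16 became 28 with the neuronal score and ran from 12 (without F3) to 19 when 1 library was left out. The knockout count of 20 ran from 17 to 21 with 1 library left out. It became 3 higher and 25 lower with only the 2 groups compared, and 3 and 22 with the neuronal score. Without A2 and A4 it was 2 higher and 14 lower. For knockout against wild type in naive DRG, 21 became 2 with the blood score, 2 without the 4 libraries, 6 with the neuronal score and 13 without A2 and A4, and ran from 13 to 24 (without B1). In injured DRG, 4 became 1 with only the 2 groups compared and ran from 2 (without E2 or E3) to 5. For injury in wild-type cord, 0 became 1 with the neuronal score or limma and 4 with DESeq2, and ran from 0 to 4 (without A5); in knockout cord, 2 became 0 with the neuronal score and ran from 2 to 3. For genotype in naive cord, 7 became 0 with the blood score, 4 with the neuronal score and 11 with limma, and ran from 4 to 11. In injured cord, 1 became 2 with only the 2 groups compared or DESeq2, and ran from 1 to 2. The difference of injury response between tissues in wild type, 11 genes, became 24 with the neuronal score. Among the 72 results of single genes chosen by the rule for named genes, direction was kept in all but 1 of 1501 further values: Sv2c between tissues in knockout was 0.65 with the neuronal score. In 117 they no longer passed. Other genes in the text are not in that count, and between naive DRG genotypes Rab3a (0.41) became -0.03 with the blood score, and Syn1 (0.59) -0.18 with the blood and -0.04 with the neuronal score. The cause of these changes was not tested.

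GEO's labels share no replicate numbers across groups, but numbers in the column names could relate DRG and cord libraries. Over 18 such pairs the correlation of deviations ran from 0.02 to 0.30 and was over 0.1 in 14, and 15 correlated best with their own number. This is a hint of pairing from the data. Not every pair was over 0.1, the condition set for treating numbers as pairing, so the fits without the block were kept. With a replicate block the tissue counts were 29 in wild type and 29 in knockout, and those of the tissue difference in injury response 11 and 17 (without the block 11 and 19).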
